A study of Mus musculus with 32 samples.

Results

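The genes described here encode calcium channels, release channels and pumps, and were read in the mouse striatum. Included are the pore and auxiliary subunits of voltage-gated calcium channels (symbols beginning Cacna, Cacnb or Cacng), the ryanodine receptors (Ryr) and the IP3 receptors (Itpr). The others are the calcium pumps of the endoplasmic reticulum (Atp2a) and of the plasma membrane (Atp2b), and the sodium-calcium exchangers (Slc8a). They were chosen by gene symbol, with no measured value in the rule, but with earlier results of these data known. Of 18193 genes named by at least 1 probe set that carried a single gene symbol, 39 met the rule, and each gene was read through the probe set with the highest mean over all arrays. They comprised 9 pore subunits, 4 alpha-2-delta subunits, 3 beta subunits, 8 gamma subunits, 3 ryanodine receptors, 2 IP3 receptors, 3 pumps of the endoplasmic reticulum, 4 pumps of the plasma membrane and 3 exchangers. Itpr1, Cacna1i and Cacnb3 were not among the 39 genes, so the classes are not complete.

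Voltage-gated channels admit calcium when a neuron depolarises. The alpha-1 protein forms the pore, the alpha-2-delta and beta proteins bring it to the membrane and tune it, and most proteins of the gamma group act instead on AMPA-type glutamate receptors, as transmembrane AMPA receptor regulatory proteins (TARPs). Ryanodine and IP3 receptors release calcium from the endoplasmic reticulum, SERCA pumps return it there, and PMCA pumps and sodium-calcium exchangers move it out of the cell. In the striatum these proteins shape firing, transmitter release and calcium-dependent transcription of medium spiny projection neurons, the cell type most affected in Huntington's disease.

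Striatal RNA of male mice aged 12 weeks, on a mixed CBA and C57Bl/6 background, was hybridised singly to 32 one-colour Affymetrix 3' expression arrays. The mice were wild type (WT) or R6/2, a transgenic line that carries the first exon of the human huntingtin gene with an expanded CAG repeat under the human promoter. Each genotype received by oral gavage either vehicle or NVP-HSP990, an inhibitor of the chaperone HSP90, at 12 mg/kg, and tissue was taken 4 h later, which gave 7 WT vehicle, 10 WT HSP990, 7 R6/2 vehicle and 8 R6/2 HSP990 arrays. The design asks how the transgene alters striatal RNA, what brief HSP90 inhibition does, and whether that response differs between genotypes. The labels give replicate numbers but do not say that each array is a separate mouse, so a p-value reflects only how far these samples scatter, which may be technical.

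All values are log2 probe set values as deposited, between 2.15 and 14.74, with array medians of 5.73 to 5.78. A gene is called dim where its mean does not exceed 5.76, the median over the matrix, and 7 of the 39 genes were dim (Atp2a1, Atp2b4, Cacna1s, Cacna2d4, Cacng1, Cacng6 and Itpr3). Markers of medium spiny neurons stood well above that level, with a mean of 11 genes between 11.38 and 11.86 on the WT arrays, so the labelled tissue was borne out. The mean of 6 cortical neuron markers varied from array to array inside every group, between 5.08 and 8.51 in all, and was highest on R6/2 vehicle replicates 4 (8.51) and 7 (8.28). RNA quality, read as the 3' minus 5' signal of the Gapdh control probes, stood apart on R6/2 HSP990 replicate 5 (5.01) and WT vehicle replicate 5 (2.23). Under HSP990, 6 of 6 heat shock genes were higher in WT and in R6/2 mice.

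Many genes of the group were lower in the R6/2 striatum. On vehicle, 18 of 39 genes were lower in R6/2 than in WT mice (46.2%) and none was higher, at a Benjamini-Hochberg adjusted p under 0.05 in limma over all 18193 genes. The background in that comparison is 9.60% of all genes called lower and 11.9% called higher. Under HSP990, 18 were again lower (46.2%, against 11.0% of all genes) and 2 were higher (5.13%, against 22.6% of all genes). The differences in that comparison share no array with the vehicle ones. The spread of each gene was estimated over all groups together, so the calls of the vehicle and HSP990 comparisons are not independent. The median difference of the 39 genes was -0.21 on vehicle and -0.30 under HSP990, beside -0.0053 and 0.04 over all genes. In a tissue extract, fewer cells of a type and less RNA per cell cannot be told apart.

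The same direction was found in both pairs of groups for 32 of the 39 genes, a count for which no share over all genes was taken. Of the 18 genes lower on vehicle, 16 were among the 18 lower under HSP990, which is 88.9% of each list. Over all genes, 1180 were lower in both, 67.6% of the vehicle list and 59.1% of the HSP990 list. For 8 genes on vehicle and 10 under HSP990 every R6/2 array lay below every WT array, which held for 2.37% and 3.36% of all genes. Leaving the dim genes aside, 15 of 32 were lower on vehicle (46.9%, against 12.7% of genes that were not dim) and 16 of 32 under HSP990 (against 15.1%).

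**Figure D1:**
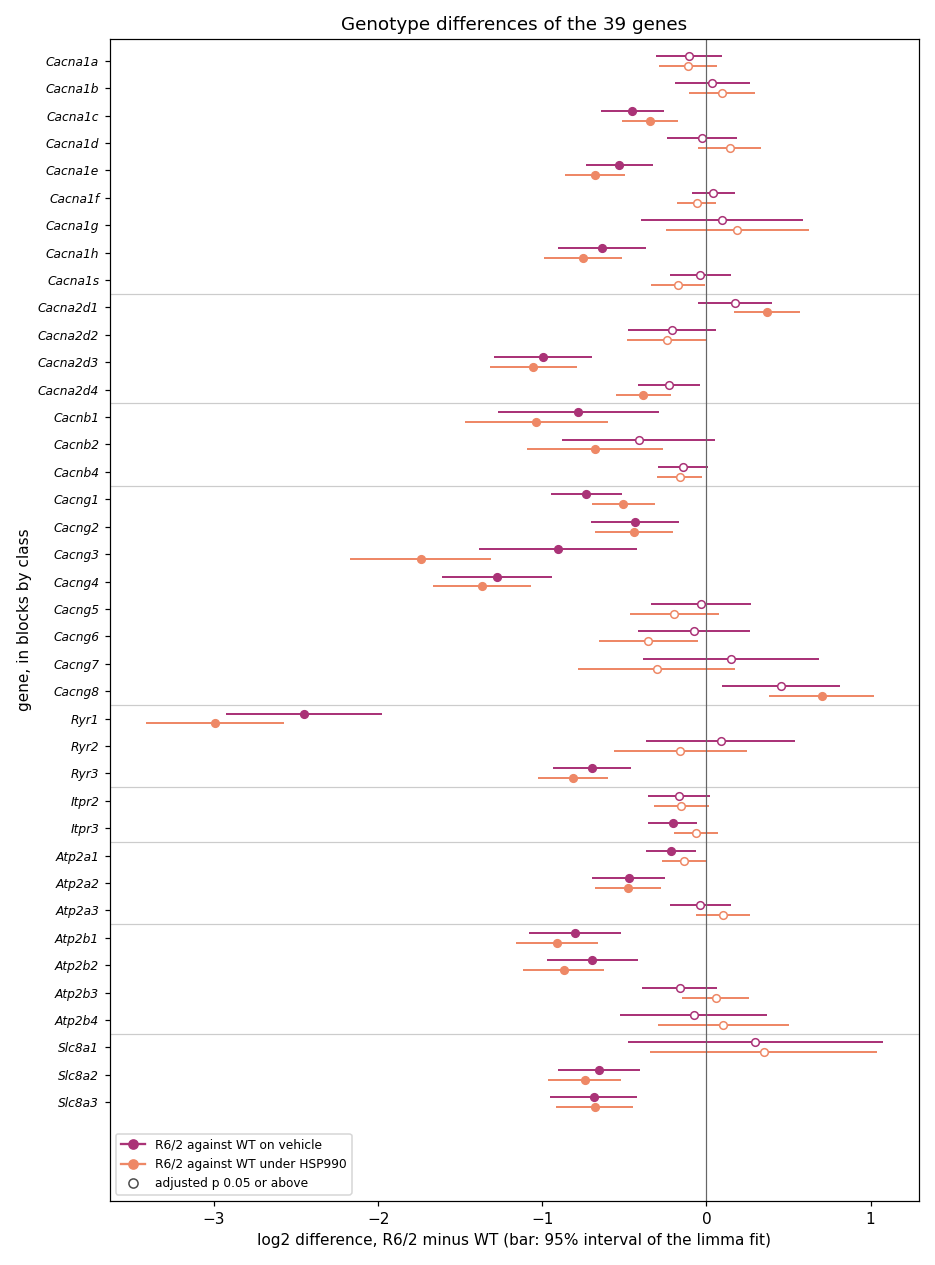
Difference between R6/2 and WT mice for each of the 39 genes, in log2 units, on vehicle and under HSP990, with genes in blocks by class. Bars are 95% intervals of the limma fit and filled points passed an adjusted p of 0.05. Ryr1 lies apart at -2.45 and -3.00, filled points lie left of 0 in 8 of the 9 classes under HSP990 and in all 9 on vehicle, and Cacna2d1 and Cacng8 are the 2 filled points to the right of 0.

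Among the release channels, Ryr1 differed most of all 39 genes. It encodes the ryanodine receptor best known from skeletal muscle, where it couples excitation to contraction, and neurons express it too. Its values ran from 7.96 to 8.90 (median 8.59) on WT vehicle arrays, from 8.07 to 9.25 (8.68) on WT HSP990 arrays, from 5.40 to 7.63 (5.69) on R6/2 vehicle arrays and from 5.29 to 6.12 (5.72) on R6/2 HSP990 arrays. No R6/2 array reached a WT array. The difference was -2.45 ± 0.23 (SE) on vehicle, with an adjusted p of 3.77e-09 in limma. Under HSP990 it was -3.00 ± 0.20 (adjusted p = 2e-12). Both R6/2 medians lay under 5.76, the level that marks a dim gene, so these differences are read as lower bounds and no fold is given. The second Ryr1 probe set gave -3.15 and -3.79. The one high R6/2 vehicle array was replicate 7 (7.63, with the other 6 arrays at 5.40 to 6.25), an array with high cortical markers. Without it the vehicle difference was -2.72. R6/2 vehicle replicate 4, with the highest cortical marker level of all arrays, read 5.97, and the part of cortical tissue in the value of replicate 7 was not tested.

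The other ryanodine receptors did not share that pattern to the same degree. Ryr3, a form found in brain, ran from 9.75 to 10.25 (median 10.06) and from 9.94 to 10.37 (10.22) in WT mice on vehicle and HSP990, and from 8.83 to 9.59 (9.41) and from 8.82 to 9.67 (9.46) in R6/2 mice. The genotypes did not overlap under either treatment. R6/2 minus WT was -0.70 ± 0.11 on vehicle (adjusted p = 2.76e-05) and -0.81 ± 0.10 under HSP990 (1.35e-07). Ryr2, the form of heart muscle that is also the common one in brain, ranged over 8.40 to 10.30 on R6/2 vehicle arrays around 8.74 to 9.31 on WT vehicle arrays, and the groups overlapped. Its difference was 0.09 ± 0.22 on vehicle and -0.16 ± 0.20 under HSP990, with 95% intervals of -0.36 to 0.54 and -0.56 to 0.24. Replicate 7 was again the highest R6/2 vehicle array, at 10.30.

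Of the 2 IP3 receptors measured, which release stored calcium after activation of phospholipase C, 1 passed. Itpr1 was not among the genes read, so nothing can be said of it here. Itpr2 differed by -0.17 ± 0.09 on vehicle and -0.15 ± 0.08 under HSP990 (adjusted p = 0.194 and 0.147), and the mean of its probe sets passed on vehicle (-0.13, 0.0396). Itpr3 was dim, from 4.42 to 4.73 (median 4.56) on WT vehicle arrays and from 4.25 to 4.53 (4.35) on R6/2 vehicle arrays, with WT at 4.33 to 4.65 (4.47) and R6/2 at 4.17 to 4.62 (4.48) under HSP990. Its groups overlapped. The vehicle difference of -0.21 ± 0.07 passed (adjusted p = 0.0322), the HSP990 difference of -0.06 ± 0.06 did not (0.48), and the vehicle call was lost without any one of R6/2 vehicle replicates 3, 4, 6 and 7 or WT vehicle replicates 3, 5 and 6.

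In the Ryr1 promoter of RefSeq (mouse GRCm38.p6, minus strand, chr7:29125152-29125401, the 250 bases before an annotated start) there were 2 GC boxes, the GGGCGG letters bound by Sp1-type factors. The start used lies inside the annotated gene, which ends at 29125179, so it is not the outermost start. This promoter is shown because Ryr1 carries the widest genotype difference, and capitals mark the GC boxes.
Ryr1: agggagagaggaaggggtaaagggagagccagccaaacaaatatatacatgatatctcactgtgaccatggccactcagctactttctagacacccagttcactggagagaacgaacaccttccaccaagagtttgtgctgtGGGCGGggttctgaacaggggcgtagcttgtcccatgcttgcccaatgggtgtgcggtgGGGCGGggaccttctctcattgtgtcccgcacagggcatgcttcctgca

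Pumps that send calcium out of the cell were lower for 2 of 4 PMCA genes. Atp2b1, the widely expressed form, ran from 12.73 to 13.14 (median 12.94) and from 12.71 to 13.24 (12.98) in WT mice on vehicle and HSP990, and from 11.70 to 12.73 (12.00) and from 11.83 to 12.50 (11.99) in R6/2 mice. All R6/2 arrays lay below the WT arrays of the same treatment. The difference was -0.80 ± 0.13 on vehicle (1.75-fold lower, adjusted p = 4.23e-05) and -0.91 ± 0.12 under HSP990 (1.88-fold lower, 3.58e-07). Atp2b2, a form enriched in brain, ran from 11.11 to 11.86 (11.42) and from 10.96 to 11.77 (11.59) in WT mice and from 10.15 to 11.16 (10.86) and from 10.33 to 10.90 (10.68) in R6/2 mice. Its groups overlapped on vehicle and were apart under HSP990, with differences of -0.69 ± 0.13 (adjusted p = 0.000246) and -0.87 ± 0.12 (6.44e-07). Both genes have 3 probe sets, and all were lower in R6/2. Atp2b3, also a brain form, differed by -0.16 ± 0.11 and 0.06 ± 0.10, and dim Atp2b4 by -0.08 ± 0.22 and 0.10 ± 0.19, none of which passed. With its probe sets averaged, Atp2b3 was called higher in R6/2 under HSP990 (0.24, adjusted p = 0.0188).

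Of the exchangers, which trade sodium for calcium across the plasma membrane, 2 of 3 were lower. Slc8a2 ran from 7.21 to 7.54 (median 7.34) and from 7.11 to 7.56 (7.29) in WT mice on vehicle and HSP990, and from 6.18 to 7.32 (6.63) and from 6.23 to 6.75 (6.59) in R6/2 mice. The groups overlapped on vehicle and were apart under HSP990, at -0.65 ± 0.12 (adjusted p = 0.000144) and -0.74 ± 0.11 (1.57e-06). Slc8a3 ran from 9.71 to 10.35 (10.22) and from 9.86 to 10.46 (10.30) in WT mice and from 8.97 to 10.06 (9.51) and from 9.27 to 9.97 (9.55) in R6/2 mice. The lowest WT arrays reached into the R6/2 range under both treatments. Its differences were -0.69 ± 0.13 (adjusted p = 0.000164) and -0.68 ± 0.11 (1.47e-05). Slc8a1, the form best known from heart, had the widest spread of the 39 genes, with R6/2 HSP990 arrays between 6.33 and 9.12 and WT vehicle arrays between 6.77 and 8.47. Its difference was 0.30 ± 0.38 on vehicle, with a 95% interval of -0.47 to 1.07, so neither a rise nor a fall of moderate size can be read from it.

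The Slc8a3 promoter (minus strand, chr12:81333181-81333430) is shown as one of 2 among the genes lower in both comparisons that hold the letters TGACG, part of the cyclic AMP response element. The start used lies inside the annotated gene, which spans 81197915 to 81333732, so it is not the outermost start. The letters TGACG begin 84 bases before the start used and are in capitals.
Slc8a3: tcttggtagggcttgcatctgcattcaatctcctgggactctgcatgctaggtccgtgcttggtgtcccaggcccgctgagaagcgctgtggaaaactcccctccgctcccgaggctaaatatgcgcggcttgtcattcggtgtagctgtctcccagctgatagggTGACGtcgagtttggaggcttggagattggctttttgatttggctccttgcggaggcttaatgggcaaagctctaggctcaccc

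SERCA pumps gave a weaker pattern. Atp2a2, the form present in nearly all cells, ran from 12.49 to 12.89 (median 12.69) and from 12.15 to 12.69 (12.60) in WT mice on vehicle and HSP990, and from 11.65 to 12.55 (12.25) and from 11.78 to 12.28 (12.11) in R6/2 mice. The ranges met at their edges. The differences were -0.47 ± 0.11 (adjusted p = 0.00144) and -0.48 ± 0.10 (0.000167), but of its 6 probe sets only the one used here passed on vehicle, and the mean of all 6 gave -0.14 (adjusted p = 0.382). Atp2a1, the fast-muscle form, was dim, at 4.95 to 5.43 (5.16) on WT vehicle, 4.79 to 5.22 (5.00) on WT HSP990, 4.87 to 5.00 (4.93) on R6/2 vehicle and 4.69 to 5.10 (4.87) on R6/2 HSP990 arrays. These ranges overlapped, and it was lower on vehicle (-0.21 ± 0.07, adjusted p = 0.0309) but did not pass under HSP990 (-0.14 ± 0.06, 0.0976). Leaving out any one of R6/2 vehicle replicates 3, 4 and 6 or WT vehicle replicates 3, 5 and 7 ended its vehicle call. Atp2a3 differed by -0.04 ± 0.09 and 0.10 ± 0.08.

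Among the pore subunits, 3 of 9 were lower in both comparisons, one from each of the L, R and T types of current. Cacna1c, the main L-type pore of neurons and heart, ran from 8.22 to 8.54 (median 8.40) and from 8.12 to 8.64 (8.36) in WT mice on vehicle and HSP990, and from 7.58 to 8.13 (8.02) and from 7.81 to 8.23 (7.99) in R6/2 mice. The genotypes were apart on vehicle and overlapped under HSP990. R6/2 minus WT was -0.45 ± 0.09 (adjusted p = 0.000388) and -0.34 ± 0.08 (0.000918). Cacna1e, the R-type pore, ran from 10.67 to 11.04 (10.85) and from 10.71 to 10.94 (10.87) in WT mice and from 10.05 to 11.04 (10.19) and from 10.05 to 10.37 (10.12) in R6/2 mice. One R6/2 vehicle array, replicate 7, lay inside the WT range at 11.04, and under HSP990 the genotypes were apart. The differences were -0.53 ± 0.10 (adjusted p = 0.000143) and -0.68 ± 0.09 (2.03e-07), and -0.65 on vehicle without replicate 7.

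Cacna1h, a T-type pore that opens at low voltage, ran from 8.64 to 9.03 (median 8.84) and from 8.49 to 9.08 (8.93) in WT mice on vehicle and HSP990, and from 7.50 to 8.59 (8.23) and from 7.53 to 8.41 (8.19) in R6/2 mice, apart under both treatments. Its differences were -0.64 ± 0.13 (adjusted p = 0.000434) and -0.75 ± 0.11 (3.73e-06). A second, dim probe set of Cacna1h went the other way under HSP990 (0.44, adjusted p = 0.000816 over all probe sets), and the mean of its probe sets passed neither on vehicle (-0.22, 0.115) nor under HSP990 (-0.15, 0.193). The remaining pores did not pass in any comparison: Cacna1a (P/Q type), Cacna1b (N type), Cacna1d, Cacna1f and Cacna1s (L type, the last from skeletal muscle and dim) and Cacna1g (T type). Cacna1a and Cacna1b, the pores that serve fast transmitter release, differed on vehicle by -0.11 ± 0.10 and 0.04 ± 0.11, with 95% intervals of -0.30 to 0.09 and -0.18 to 0.26. Cacna1d differed by -0.03 ± 0.10 on vehicle and 0.14 ± 0.09 under HSP990, and Cacna1s by -0.04 ± 0.09 and -0.17 ± 0.08.

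The alpha-2-delta subunits, extracellular proteins that raise channel density at the membrane, split in direction. Cacna2d3 ran from 10.93 to 11.53 (median 11.14) and from 11.08 to 11.55 (11.36) in WT mice on vehicle and HSP990, and from 9.56 to 10.68 (10.22) and from 9.85 to 10.63 (10.35) in R6/2 mice. No R6/2 array reached a WT array. The differences were -0.997 ± 0.14 (adjusted p = 4.6e-06) and -1.06 ± 0.13 (8.27e-08), the latter 2.08-fold lower. Cacna2d1, the best known binding site of gabapentin-like drugs, ran from 9.86 to 10.51 (10.22) and from 9.88 to 10.35 (10.06) in WT mice and from 10.10 to 10.75 (10.32) and from 10.06 to 10.78 (10.41) in R6/2 mice. Those ranges overlapped, with R6/2 higher by 0.37 ± 0.10 under HSP990 (adjusted p = 0.00252) and by 0.17 ± 0.11 on vehicle, which did not pass (0.267). None of the other 4 Cacna2d1 probe sets passed. With the mean of all 5 the calls changed places: the HSP990 difference was 0.085 (adjusted p = 0.379) and the vehicle difference 0.24 (0.0238).

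Cacna2d4, a dim gene known from retina, ran from 4.94 to 5.35 (median 5.15) and from 5.08 to 5.51 (5.21) in WT mice on vehicle and HSP990, and from 4.72 to 5.13 (4.92) and from 4.53 to 5.24 (4.92) in R6/2 mice, with overlap. It was lower under HSP990 (-0.38 ± 0.08, adjusted p = 0.000269) and missed the threshold on vehicle (-0.23 ± 0.09, 0.0667), where leaving out replicate 2 or 4 of the R6/2 HSP990 arrays, replicate 6 of R6/2 vehicle or replicate 5 of WT vehicle took it past. Cacna2d2 differed by -0.21 ± 0.13 and -0.24 ± 0.12, and neither passed.

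The Cacna2d3 promoter (minus strand, chr14:29721865-29722114) stands for the promoters rich in GC boxes among the lower genes, with 4 copies on either strand in capitals (GGGCGG, or CCGCCC for the opposite strand). This window too lies inside the annotated gene, which ends at 29722775, so its start is not the outermost one.
Cacna2d3: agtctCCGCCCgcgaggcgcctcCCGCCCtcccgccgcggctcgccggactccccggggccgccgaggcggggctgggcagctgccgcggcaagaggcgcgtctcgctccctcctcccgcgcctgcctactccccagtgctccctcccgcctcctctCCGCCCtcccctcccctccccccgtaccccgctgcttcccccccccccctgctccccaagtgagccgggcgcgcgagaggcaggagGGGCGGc

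Beta subunits sit on the inner face of the channel and carry the pore to the membrane. Cacnb1 ran from 8.59 to 9.44 (median 8.91) and from 8.68 to 9.46 (9.09) in WT mice on vehicle and HSP990, and from 7.96 to 8.98 (8.12) and from 6.34 to 8.69 (8.30) in R6/2 mice. One R6/2 vehicle array lay inside the WT range, and the lowest R6/2 HSP990 array was replicate 5, the array with the strongest 3' signal excess. The differences were -0.78 ± 0.24 (adjusted p = 0.0168) and -1.04 ± 0.21 (0.000223), and without that array -0.79 under HSP990 (0.000123). Cacnb2 ran from 7.11 to 8.64 (7.84) and from 6.95 to 8.45 (8.08) in WT mice and from 6.70 to 8.04 (7.71) and from 6.72 to 7.79 (7.45) in R6/2 mice, with broad overlap. It passed under HSP990 (-0.68 ± 0.20, adjusted p = 0.00779) and not on vehicle (-0.41 ± 0.23, 0.205), and with the 3' signal excess as a covariate the HSP990 difference was -0.43 (0.0891). Cacnb4, which is mutated in the epileptic lethargic mouse, differed by -0.14 ± 0.07 and -0.16 ± 0.06 (adjusted p = 0.164 and 0.0502), close enough to the threshold that leaving out some single arrays made the HSP990 call, as did the mean of its probe sets (-0.33, 0.000649).

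Of the 8 gamma genes, 4 were lower in both comparisons and 1 was higher under HSP990. Cacng4, a TARP prominent in striatum, ran from 9.77 to 10.42 (median 10.15) and from 9.82 to 10.62 (10.21) in WT mice on vehicle and HSP990, and from 8.42 to 9.57 (8.81) and from 8.16 to 9.33 (8.83) in R6/2 mice. The genotypes were apart under both treatments. The differences were -1.28 ± 0.16 (2.42-fold lower, adjusted p = 6.43e-07) and -1.37 ± 0.14 (2.58-fold lower, 6.43e-09). Cacng2, or stargazin, the founding TARP, ran from 8.91 to 9.68 (9.29) and from 9.02 to 9.62 (9.28) in WT mice and from 8.49 to 9.26 (8.82) and from 8.55 to 9.18 (8.87) in R6/2 mice, which overlapped. It differed by -0.43 ± 0.13 (adjusted p = 0.0138) and -0.44 ± 0.11 (0.0026), and all 3 of its probe sets were called lower.

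Cacng1, the gamma subunit of the skeletal muscle channel, was dim. It ran from 5.28 to 5.88 (median 5.47) and from 4.84 to 5.73 (5.38) in WT mice on vehicle and HSP990, and from 4.67 to 4.97 (4.81) and from 4.63 to 5.04 (4.83) in R6/2 mice, apart on vehicle only. The differences were -0.73 ± 0.10 (adjusted p = 3.42e-06) and -0.51 ± 0.09 (4.72e-05). Cacng8, a TARP of forebrain neurons, ran from 5.11 to 6.24 (5.98) and from 5.57 to 6.25 (5.82) in WT mice and from 5.65 to 6.91 (6.33) and from 5.81 to 6.89 (6.67) in R6/2 mice, with overlap. It was higher in R6/2 under HSP990 (0.70 ± 0.15, adjusted p = 0.000499), and its vehicle difference of 0.45 ± 0.17 missed the threshold (0.0598), though it passed without R6/2 vehicle replicate 7, R6/2 HSP990 replicate 7 or WT vehicle replicate 2. Its second probe set gave -0.35 under HSP990 and did not pass, and the mean of both gave 0.18 (adjusted p = 0.226).

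Calls were not shared by all neighbouring gamma genes, and whether neighbours change together was not tested. Cacng1, Cacng4 and Cacng5 follow one another on chromosome 11 of the RefSeq annotation, and Cacng5 differed by -0.03 ± 0.15 and -0.20 ± 0.13 where the first pair was lower. Cacng7, Cacng8 and Cacng6 lie side by side on chromosome 7. Cacng6, which was dim, differed by -0.08 ± 0.16 and -0.35 ± 0.15, and Cacng7 by 0.15 ± 0.26 and -0.30 ± 0.23, without passing.

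**Figure D2:**
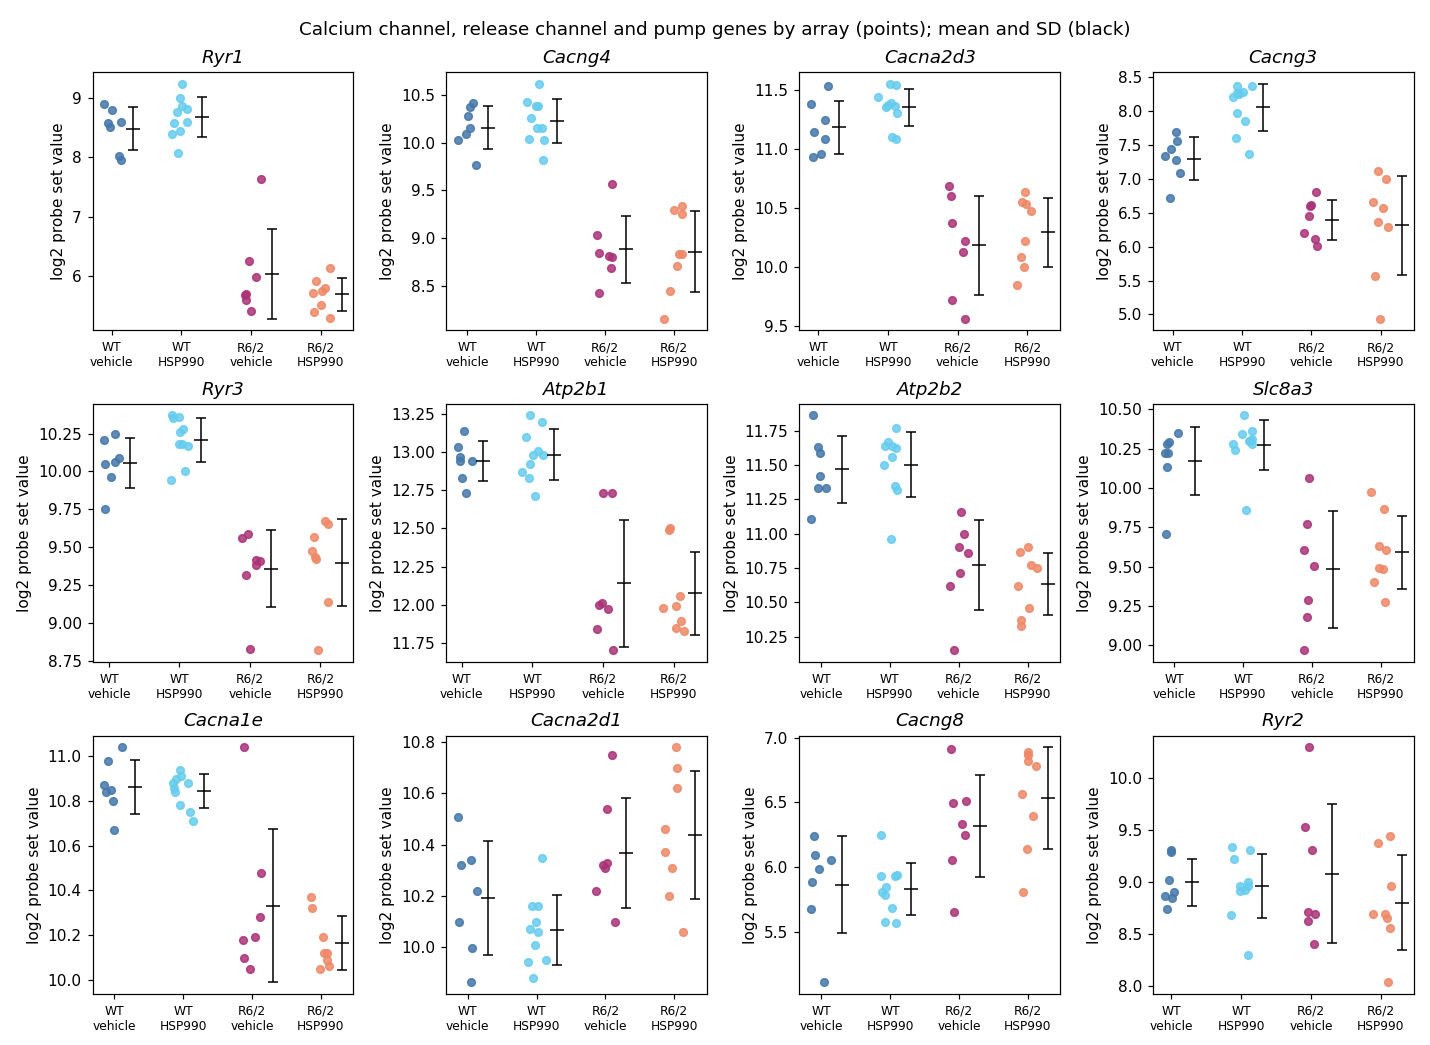
Log2 probe set value of 12 of the genes on each array, in the 4 groups of WT and R6/2 mice on vehicle or HSP990; black marks are group means with SD. R6/2 points lie below all WT points of the same treatment for Ryr1, Cacng4, Cacna2d3, Ryr3 and Atp2b1, Cacna2d1 and Cacng8 show the opposite shift, Ryr2 points overlap, and Cacng3 is the panel where the WT HSP990 points (7.37 to 8.38) lie mostly above the WT vehicle points (6.72 to 7.69).

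The genotype difference could be seen on single arrays. The mean of the 16 genes lower in both comparisons, a description because those genes were picked for being lower, was 9.45 to 9.70 on WT vehicle, 9.44 to 9.77 on WT HSP990, 8.64 to 9.11 on R6/2 vehicle and 8.52 to 8.86 on R6/2 HSP990 arrays. The highest R6/2 vehicle value came from replicate 7, which was the top array of its group for 8 of the 16 genes. Without replicate 7, 18 genes were called on vehicle, Itpr3 having dropped out (adjusted p = 0.0509) and Cacng8 having come in as higher (0.56, adjusted p = 0.0134). With the cortical marker level of each array as a covariate, chosen after seeing the data, 18 genes were lower and 1 was higher on vehicle, and 18 were lower and 2 higher under HSP990.

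Other probe sets of a gene mostly gave the direction of the one used. Of the 18 genes called on vehicle, 13 had further probe sets, 10 had at least 1 of these called in the same direction and 0 had one called in the opposite direction. In 9 genes a further probe set was not dim, and 8 of these had one called the same way, Atp2a2 being the exception. Under HSP990, 17 of the 20 called genes had further probe sets, 13 had one called the same way and 1 (Cacna1h) one called the opposite way. With the mean of all probe sets of a gene in place of the brightest, 17 genes were lower and 1 higher on vehicle, and 18 were lower and 1 higher under HSP990, but not the same ones. On vehicle Cacna1e (-0.23, adjusted p = 0.0622), Cacna1h and Atp2a2 no longer passed, while Cacna2d4 (-0.23, 0.000837), Itpr2 and Cacna2d1 came in. Under HSP990 Cacna1h, Cacna2d1 and Cacng8 no longer passed, while Cacnb4 and Atp2b3 came in. Of the 3 pores lower in both comparisons, Cacna1c was the one that passed in both with this mean.

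**Figure D3:**
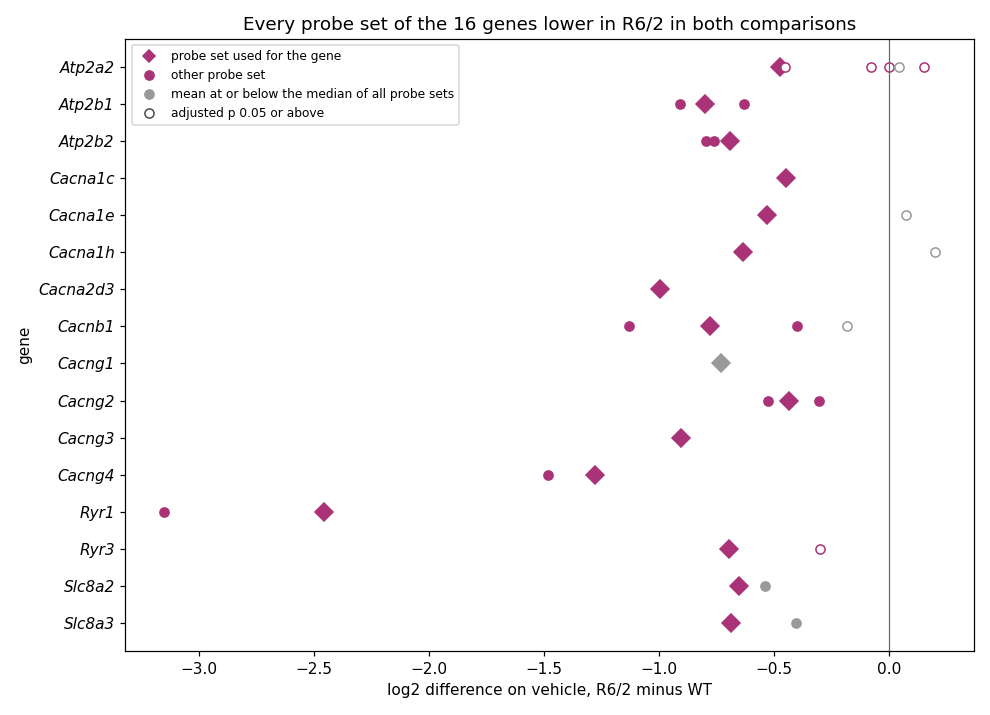
R6/2 minus WT on vehicle, in log2 units, for every probe set of the 16 genes called lower in both comparisons. Diamonds are the probe sets used for the genes, circles the others, grey marks dim probe sets and open marks missed an adjusted p of 0.05; both Ryr1 probe sets lie beyond -2.4, and 5 further Atp2a2 probe sets are open.

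Few of these genes changed under HSP990. In WT mice 1 of 39 genes was higher (2.56%, against 2.24% of all genes called higher) and 0 were lower (against 3.57%) in limma, with 3 genes at an unadjusted p under 0.05, beside 18.5% of all genes. In R6/2 mice 0 of 39 passed, against 3.09% of all genes called in either direction. There 1 gene had an unadjusted p under 0.05 (Cacng5, -0.34 ± 0.14, adjusted p = 0.223), beside 15.8% of all genes. The median change was 0.02 in WT and -0.06 in R6/2 mice. The 95% interval lay within 0.5 of no change for 31 genes in WT and 29 in R6/2 mice, and these intervals do not reach a larger change. The widest intervals were those of Slc8a1, which reached down to -1.13 in WT and -1.11 in R6/2 mice. Ryr1 changed by 0.19 ± 0.21 in WT and -0.35 ± 0.22 in R6/2 mice, neither of which passed.

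Some further probe sets of genes that were not called did pass in WT mice. The second probe set of Cacna1c was higher by 0.49 (adjusted p = 0.000915 over all probe sets) where the first changed by -0.03. The second probe set of Ryr3 was higher by 0.49 (0.00708) where the first changed by 0.16. For Cacna1h, the dim probe set was lower by -0.36 (0.034). The mean of the probe sets passed in WT mice for Cacna1c (0.23, adjusted p = 0.0432) and Ryr3 (0.38, 0.0106).

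**Figure D4:**
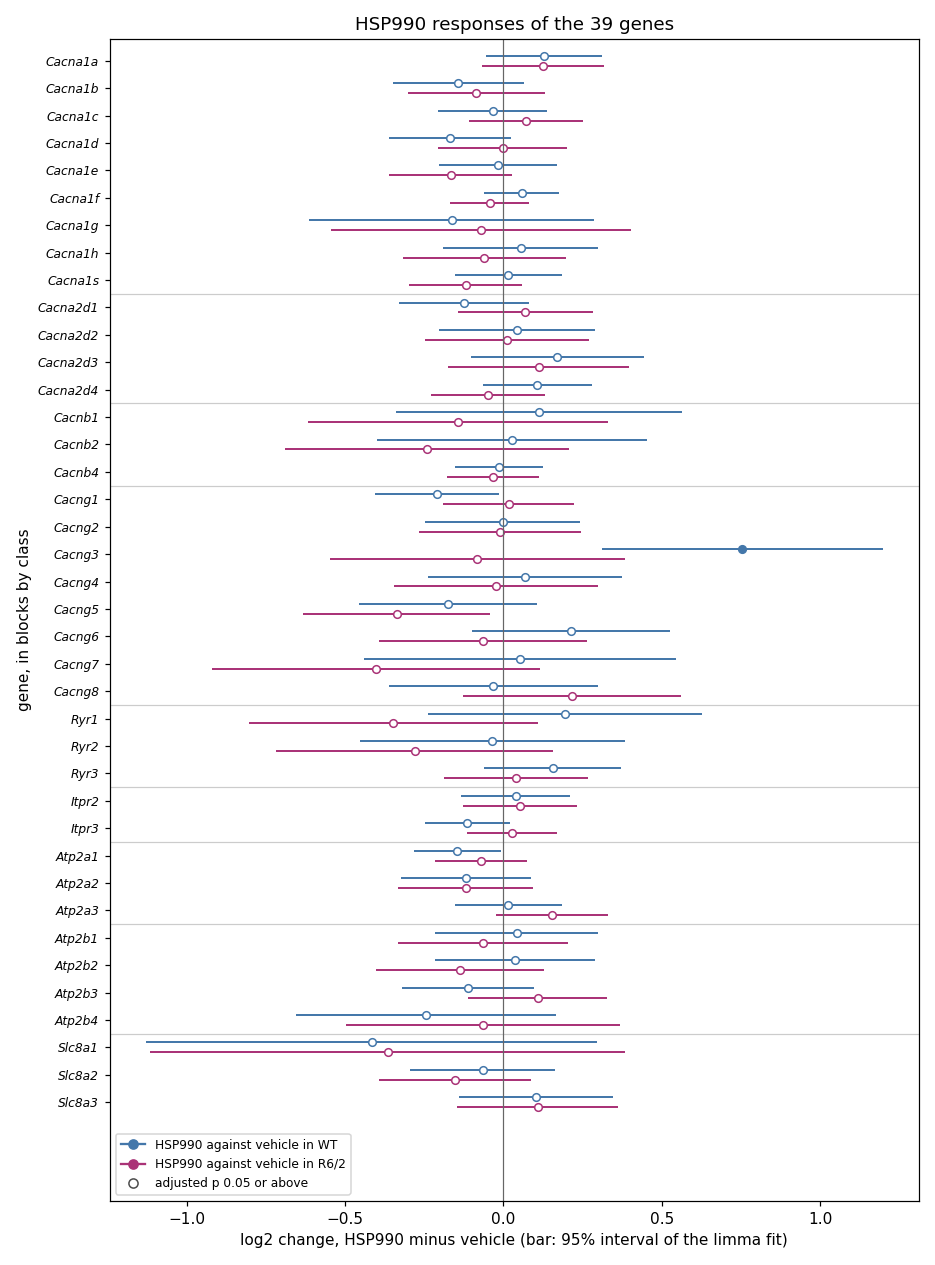
HSP990 minus vehicle for each of the 39 genes, in log2 units, in WT and in R6/2 mice, with 95% intervals of the limma fit. The only filled point, which passed an adjusted p of 0.05, is Cacng3 in WT mice at 0.76, and the bars of Slc8a1 are the widest.

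Cacng3, a TARP of cortical and other forebrain neurons read by a single probe set, was the gene that responded in WT mice. It ran from 6.72 to 7.69 (median 7.34) on WT vehicle, from 7.37 to 8.38 (8.23) on WT HSP990, from 6.00 to 6.80 (6.45) on R6/2 vehicle and from 4.94 to 7.12 (6.47) on R6/2 HSP990 arrays. All 10 WT HSP990 arrays lay above the WT vehicle mean, though the ranges overlapped, and both R6/2 groups sat low. The change was 0.76 ± 0.22 in WT (1.69-fold, adjusted p = 0.0308) and -0.08 ± 0.23 in R6/2 mice (0.911). The WT call was lost when any of 9 single arrays was left out, with adjusted p up to 0.0933 (WT HSP990 replicates 3, 4, 6, 8 and 10, WT vehicle replicates 1, 3, 5 and 7).

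Whether the Cacng3 response differs between genotypes was tested directly. The interaction was -0.84 ± 0.31 (unadjusted p = 0.0117, adjusted p = 0.241), and 0 of the 39 genes passed that test, against 0.247% of all genes. Cacng3 was the 1 gene at an unadjusted p under 0.05, beside 12.9% of all genes. R6/2 minus WT was -0.90 ± 0.23 on vehicle (adjusted p = 0.00506), with overlapping groups, and -1.74 ± 0.21 under HSP990 (6.99e-08), with groups apart. The WT HSP990 arrays serve both the WT response and this last difference, so these are not independent. The lowest R6/2 HSP990 array was again replicate 5, and without it the latter was -1.54 (adjusted p = 4.83e-08). Since Cacng3 is a cortical gene too, its values are set against cortical markers. None of 6 cortical markers was called under HSP990 in WT mice. Their median change was -0.40 with SEs of 0.27 to 0.92, so a shift of that size could be missed. Their mean ranged over 5.38 to 7.96 on WT vehicle and 5.08 to 7.60 on WT HSP990 arrays. With this mean as a covariate, chosen after seeing the data, the Cacng3 change was 0.75 (adjusted p = 0.0352 in limma). The part of cortical tissue in the Cacng3 values was not tested.

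**Figure D5:**
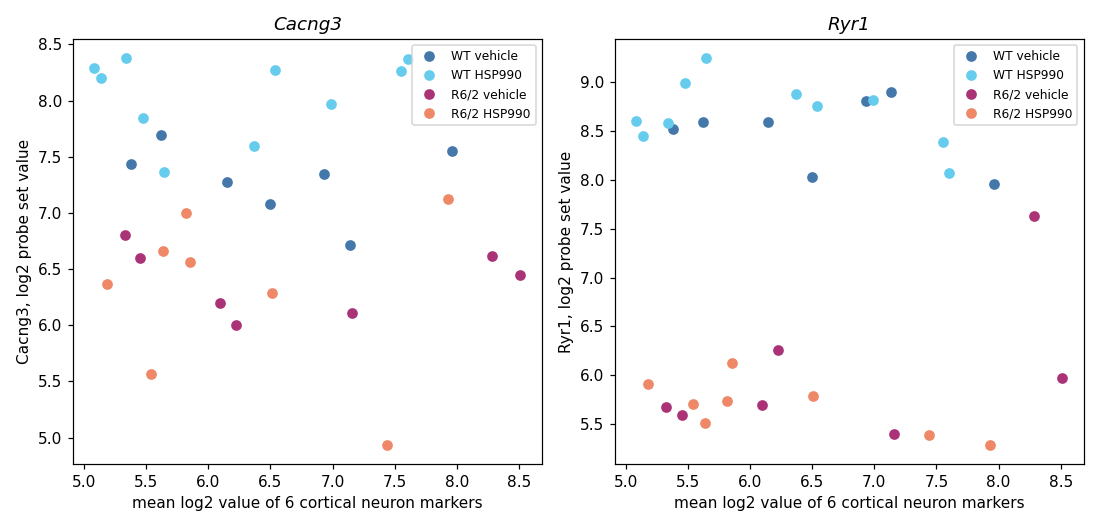
Cacng3 (left) and Ryr1 (right) on each array, as log2 probe set values, against the mean log2 value of 6 cortical neuron markers on the same array, coloured by group. The cortical level spreads from 5.08 to 8.51 with all groups mixed, while the genotypes separate vertically for Ryr1 and overlap for Cacng3; the R6/2 vehicle array at 7.63 for Ryr1 has a cortical level of 8.28.

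Genes that act beside these channels were read in the same way. Of 11 genes measured for store-operated entry (Stim and Orai genes) and the mitochondrial uniporter, 2 were higher in R6/2 in both comparisons and none was lower, at a median of 0.05 on vehicle and 0.0035 under HSP990. Of all genes, 11.9% were called higher on vehicle and 22.6% under HSP990, so 2 of 11 is near or below the background. These were Micu3 (0.32 ± 0.10 and 0.22 ± 0.09) and Micu2 (0.27 ± 0.09 and 0.24 ± 0.08), regulators of the uniporter. None passed under HSP990 against vehicle in either genotype.

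Of 35 other calcium transporters and channel partners, 4 were higher and 8 lower on vehicle, and 6 were higher and 7 lower under HSP990, with medians of 0.03 and -0.04. Over all genes the shares were 11.9% higher and 9.60% lower on vehicle and 22.6% higher and 11.0% lower under HSP990, so the counts of higher genes do not exceed the background. On vehicle the 6 with the smallest p were Jph4 (-0.76 ± 0.10), which holds the plasma membrane close to the endoplasmic reticulum, Slc24a4 (-0.89 ± 0.13), a potassium-dependent exchanger, Rem2 (-1.14 ± 0.17), a small GTPase that inhibits voltage-gated channels, Homer1 (-0.71 ± 0.11), which links glutamate receptors to IP3 receptors, Trpc4 (0.70 ± 0.13), a cation channel, and Stac3 (-0.35 ± 0.09), an adaptor of muscle channels. Under HSP990 they were Homer1 (-1.05 ± 0.10), Jph4 (-0.86 ± 0.09), Slc24a4 (-0.95 ± 0.11), Rem2 (-1.16 ± 0.15), Fkbp1b (0.89 ± 0.19), which binds ryanodine receptors, and Nalcn (0.25 ± 0.06), a sodium leak channel. For HSP990 against vehicle, 1 of the 35 was called in each genotype. That is near the shares of all genes, 2.24% called higher in WT and 3.09% called in either direction in R6/2 mice. The calls were Gem, another channel-inhibiting GTPase, higher in WT mice (0.41 ± 0.10, adjusted p = 0.00756 in limma), and Trpc4, lower in R6/2 mice (-0.49 ± 0.13, 0.024).

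Of 33 calcium buffers, sensors and effectors measured, 15 were lower and 1 higher on vehicle (median -0.30). Under HSP990, 17 were lower and 6 higher (median -0.38). Of all genes, 9.60% and 11.0% were called lower, and 11.9% and 22.6% higher. The counts of higher genes thus do not exceed the background. On vehicle the leading ones were the kinases Camkk2 (-1.17 ± 0.13), Camk1g (-1.61 ± 0.19), Prkcb (-0.66 ± 0.08), Camk4 (-1.28 ± 0.18) and Itpka (-1.06 ± 0.18), and the calmodulin-binding peptide Pcp4 (-0.88 ± 0.10). Under HSP990 they were Prkcb (-0.73 ± 0.07), Camk1g (-1.44 ± 0.17), Itpka (-1.34 ± 0.16), Pcp4 (-0.78 ± 0.09), Camkk2 (-0.92 ± 0.12) and Camk2b (-0.78 ± 0.10). In WT mice 2 of the 33 were called lower under HSP990, beside 3.57% of all genes. They were Rcan1, an inhibitor of calcineurin (-0.20 ± 0.05, adjusted p = 0.00599 in limma), and Camkk2 (-0.50 ± 0.12, 0.0104). Rcan1 was also the 1 gene of these calcium gene lists with an interaction (0.35 ± 0.07, adjusted p = 0.0132 in limma), and none of the 33 passed in R6/2 mice.

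Cell type markers were read beside the shares of all genes called lower in R6/2, 9.60% on vehicle and 11.0% under HSP990. The shares called higher were 11.9% and 22.6%. A single call in a short list is near these shares and is not read as a shift of that cell type. Of 11 medium spiny neuron markers, 10 were lower in R6/2 in both comparisons, with medians of -1.46 and -1.59, and their mean level was 9.42 to 10.91 on R6/2 vehicle and 9.60 to 10.61 on R6/2 HSP990 arrays. Of 9 interneuron markers, 5 were lower on vehicle and 7 under HSP990. The 6 cortical markers gave no call. Among 7 astrocyte, 7 myelin and 7 microglial markers, 1, 2 and 2 were lower on vehicle, and 4, 5 and 4 were lower under HSP990, where 1 astrocyte marker was higher. Of 6 muscle markers, set beside the muscle forms of these channels, Actn2 was lower in both comparisons (-1.49 ± 0.19 and -1.31 ± 0.17), Ttn was higher under HSP990 (0.24 ± 0.09) and 4 of the 6 were dim. The 5 markers each of other subcortical neurons, oligodendrocyte precursors and choroid plexus and the 9 of vessels gave no call on vehicle, and under HSP990 Olig2 and Pecam1 were lower. For Olig2 the genotypes differed by -0.02 ± 0.15 on vehicle, and HSP990 raised it in WT mice (0.60 ± 0.14, adjusted p = 0.00456 in limma). The part of medium spiny neurons in the lower values of the calcium genes was not tested.

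RefSeq promoters were found for 30 of the 39 genes and for 11 of the 16 that were lower in both comparisons. On either strand of the 250 bases before a start, GGGCGG was present for 20 of 30 genes (66.7%) and for 7 of those 11 (63.6%), beside 53.5% of all tested genes with a promoter. TGACG was present for 5 of 30 (16.7%) and 2 of 11 (18.2%), Cacna1c and Slc8a3, beside 25.9%. The full element TGACGTCA, which contains TGACG, was in 0 of 30, beside 2.51%. A core of the heat shock element, GAANNTTC, was in 2 of 30 (6.67%), beside 6.60%, and CACGTG, an E box, in 1 of 30 (3.33%), beside 8.74%. These are matches of letters in a short window, as in the promoters of Ryr1, Slc8a3 and Cacna2d3 printed above, and say nothing of binding.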

How the data were processed

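The authors deposited log2 values of 45101 probe sets for 32 arrays. The normalization method and genome build, not given in the sources used here, remain unknown. That they are log2 was read from the deposited values. RNA was labelled with a 3' in vitro transcription kit, per the labels' protocols. Probe sets were named through the platform annotation: 34945 non-control probe sets had 1 symbol, 932 several and 9160 none, and only the first were used. No array pair was identical. A 4-group model was fitted in limma 3.58.1 (R 4.3.3, lmFit and eBayes, two-sided) to all 18193 genes, with 5 contrasts and Benjamini-Hochberg adjustment, and was tested on simulated data. The number of arrays limits the precision. The 39 genes and all lists were chosen with earlier results of these data known. Every one of the 39 is named; genes called in any contrast have values in every group, and of the uncalled genes of a class the 2 with the smallest p have a value. Of other lists, up to 6 called genes per contrast are named. Replicate numbers were not used to pair arrays in this model. Alternatives covered normalization, probe set choice, dim genes, model, 3' bias and left-out arrays. Promoters are RefSeq GRCm38.p6.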

Additional observations from a re-analysis of the deposited data

Results flagged for a closer look

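Single arrays that stood apart from the rest of their group were looked for in the 22 genes called in any comparison, in each of the 4 groups, which gave 88 sets of 7 to 10 arrays. In 10 sets the highest or lowest array lay apart by Dixon's criterion at the 95% level, where chance alone would give about 1 in 20 sets. On R6/2 vehicle arrays, Ryr1 read 7.63 in replicate 7 (others 5.40 to 6.25), Cacnb1 read 8.98 in replicate 1 (others 7.96 to 8.23), Cacna1c read 7.58 in replicate 2 (others 7.94 to 8.13) and Ryr3 read 8.83 in replicate 4 (others 9.32 to 9.59). On R6/2 HSP990 arrays, Cacnb1 read 6.34 in replicate 5 (others 7.86 to 8.69), the array with the strongest 3' signal excess, and Cacna1h read 7.53 in replicate 6 (others 8.07 to 8.41). On WT HSP990 arrays, replicate 6 was low for Cacna1h (8.49, others 8.82 to 9.08) and for Slc8a3 (9.86, others 10.24 to 10.46), and replicate 2 was low for Cacnb2 (6.95, others 7.86 to 8.45). On WT vehicle arrays, Slc8a3 read 9.71 in replicate 4 (others 10.13 to 10.35).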

How the results depend on the processing

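Counts of genes called were 16 to 19 on vehicle and 20 to 23 under HSP990 for R6/2 against WT when single arrays were left out, 0 to 1 for HSP990 in WT, and 0 to 0 for HSP990 in R6/2 and for the interaction. The count for HSP990 in WT was 3 with probe sets averaged within each gene and 0 with the replicate number as a block. The block gave 20 and 21 genes for R6/2 against WT on vehicle and under HSP990 and 0 for the other contrasts, and ended the Cacng3 call in WT (0.73, adjusted p = 0.0988). Deviations of same-numbered arrays of different groups correlated at -0.29 to 0.38 (43 pairs, median 0.071). For differently numbered arrays the range was -0.53 to 0.56 (338 pairs, median -0.019). The labels name no batch, and whether the replicate number marks one was not tested, so the block is given only here. With probe sets averaged, Cacna1c in WT under HSP990 went from -0.03 to 0.23 (adjusted p = 0.0432), the 1 value among 3540 alternative values of single genes whose sign changed with a call in either setting; signs of uncalled values also changed. Of the 3540, 35 lost and 47 gained a call. The number of arrays, and for 7 dim genes the signal over background, limit what could be detected. Under HSP990 the R6/2 against WT differences of Atp2a1 and Cacna2d2 passed without R6/2 HSP990 replicate 2, and that of Cacng6 without replicate 2 or 7 of R6/2 HSP990, 2 or 6 of WT HSP990, or 3 or 4 of WT vehicle.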
